A study of Mus musculus with 12 samples.

Results

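Far control sites are bases listed as 5-formylcytosine (5fC) in control mouse embryonic stem cells that had no listed 5fC base of Tdg knockout cells within 1000 bases and no other control site exactly 1 base away. They numbered 3057 of the 32614 control sites on the 19 autosomes, or 9.37% (95% interval 9.06 to 9.69). The series mapped 5fC by a chemical reaction that makes the base read as T, followed by biotin pull-down. Its labels describe 12 libraries, with 2 replicates per genotype of the input DNA before labelling, the labelled input and the pull-down output, and the measurement used here is 1 list of 5fC positions per genotype. The knockout cells are Tdg -/-. The control cells are Tdg fl/fl and keep TDG, with no agent or Cre named for them. Both are labelled mES cells of strain C57BL/6-ICR, grown without feeders in serum medium with LIF, and how many lines or clones stand behind each genotype is not given in the sources used here. The lists hold positions only, so neither the loss of Tdg nor the cell type was checked against expression, and the genotype of each list rests on its name.

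5fC is made when TET enzymes oxidise 5-methylcytosine by way of 5-hydroxymethylcytosine. TDG, a DNA glycosylase, cuts 5fC and its further oxidised form 5-carboxylcytosine out of DNA, and base excision repair then restores an unmodified cytosine. In embryonic stem cells 5fC is known for its presence at enhancers and other regulatory regions, where loss of TDG lets it accumulate. A control site that is far from every knockout site is therefore a base listed where the enzyme was present and not listed, nor closely neighboured, where it was absent.

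The rule chose these sites in 2 steps. Of all autosomal control sites, 3113 (9.54%, 9.23 to 9.87) had no knockout site within 1000 bases. Of those, 56 sites, in 28 pairs, lay 1 base from another control site and were left out. The remaining 3057 were set against the 27833 autosomal control sites that also lacked an adjacent control site but had a knockout site within 1000 bases, called near sites here. Far sites were 9.90% (9.57 to 10.2) of the 30890 far and near sites. The distance to knockout sites chose the far sites, so it is described and not tested. With 1 list per genotype no difference between genotypes or between far and near sites has a replicate check, and no p-value is given. All intervals on shares are exact Clopper-Pearson 95% intervals that cover counting error only. They are too narrow where sites lie in clusters.

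Site numbers changed gradually across the threshold. The far sites closest to it lay 1001 bases from a knockout site, on chromosomes 9, 13 and 16. The near sites closest to it lay 999 bases away on chromosomes 8 and 18 and 998 bases away on chromosome 8. Between 901 and 1000 bases from a knockout site there were 150 near sites, and between 1001 and 1100 bases there were 116 far sites.

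The distances of far sites to knockout sites ranged from 1001 to 1896988 bases. Their median distance was 5088 bases (95% interval of the median 4780 to 5436), with quartiles at 2082 and 14335 bases. Over all autosomal control sites the median was 1 base, because many of them coincide with a knockout site or its neighbouring base. Of the far sites, 717 (23.5%) lay 1001 to 2000 bases away, 798 (26.1%) 2001 to 5000 bases, 541 (17.7%) 5001 to 10000 bases and 779 (25.5%) 10001 to 50000 bases. The remaining 222 (7.26%, 6.37 to 8.24) lay more than 50 kb from any knockout site, 119 of them more than 100 kb and 10 more than 500 kb. Thus 32.7% (31.1 to 34.4) of far sites were more than 10 kb away.

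**Figure D1:**
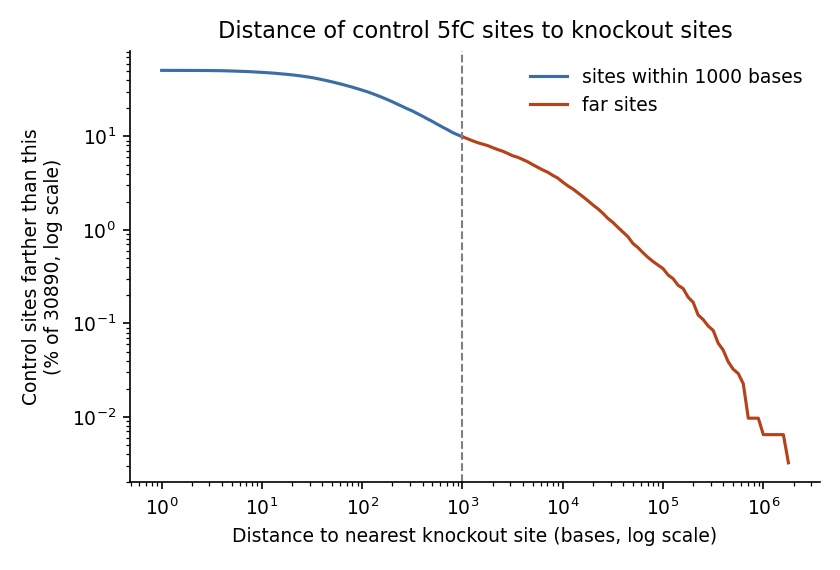
Share of the 30890 control sites without an adjacent control site (vertical axis, %, log scale) that lie farther from the nearest knockout site than the distance on the horizontal axis (bases, log scale). The curve passes the dashed line at 1000 bases at 9.90% without a step, and 3.24% of sites lie beyond 10 kb.

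The 10 far sites most distant from any knockout site lay on 6 autosomes. The farthest was on chromosome 14 at position 109312166 (mm9, as listed), 1896988 bases from the nearest knockout site and 1896901 bases from the nearest other control site. The next was on chromosome 1 at 150149385, with 1627065 bases to the nearest knockout site. On chromosome 7, position 67300422 was 986114 bases away. None of these 3 had another control site within 1 Mb. Position 115110289 on chromosome 12 was 692760 bases from a knockout site, and position 12919857 on chromosome 3 was 689457 bases from one. On chromosome 2, position 41939206 was 561444 bases away. The other 4 were all on chromosome 1: 27089853, 143749982, 143694384 and 110443568, at 692125, 663701, 608103 and 570925 bases. Positions 143694384 and 143749982 were each other's nearest control site, 55598 bases apart. The genes around these positions were not analysed here.

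Control sites became steadily scarcer with distance from knockout sites, and the fall went on well past the threshold. To compare distances, the number of control sites in each range was divided by the bases of knockout-free sequence available at that distance. Between 2 and 100 bases from a knockout site there were 309.9 control sites per Mb (mean over autosomes 312.2 ± 22.9, SD, n = 19). The density was 25.3 sites per Mb at 501 to 1000 bases, the last range of near sites. Among far sites it was 7.48 per Mb at 1001 to 2000 bases (7.36 ± 1.60 over autosomes), 3.67 at 2001 to 5000 bases, 2.24 at 5001 to 10000 bases, 1.46 at 10001 to 20000 bases and 0.811 at 20001 to 50000 bases. Beyond 100 kb it was 0.173 per Mb (0.173 ± 0.0633). The density at 1001 to 2000 bases was thus 43.3 times that beyond 100 kb, while the density at 2 to 100 bases was 41.4 times that at 1001 to 2000 bases. Sequence that reads cannot be placed on was not removed from the available bases, and its part in the lowest densities was not tested.

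Only long stretches hold bases at great distances, so the slope was also measured within long stretches. Between knockout sites more than 20 kb apart, the density was 4.65 sites per Mb at 1001 to 2000 bases (4.62 ± 1.78, SD over 19 autosomes), 2.48 at 2001 to 5000 bases (2.40 ± 0.813) and 2.02 at 5001 to 10000 bases (2.02 ± 0.633). In these stretches the nearest range of far sites was 2.30 times as dense as the range at 5001 to 10000 bases. The last 2 ranges were closer to each other. Each autosome gives a value for both ranges, so these SDs do not measure the spread of the difference, which was not computed.

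**Figure D2:**
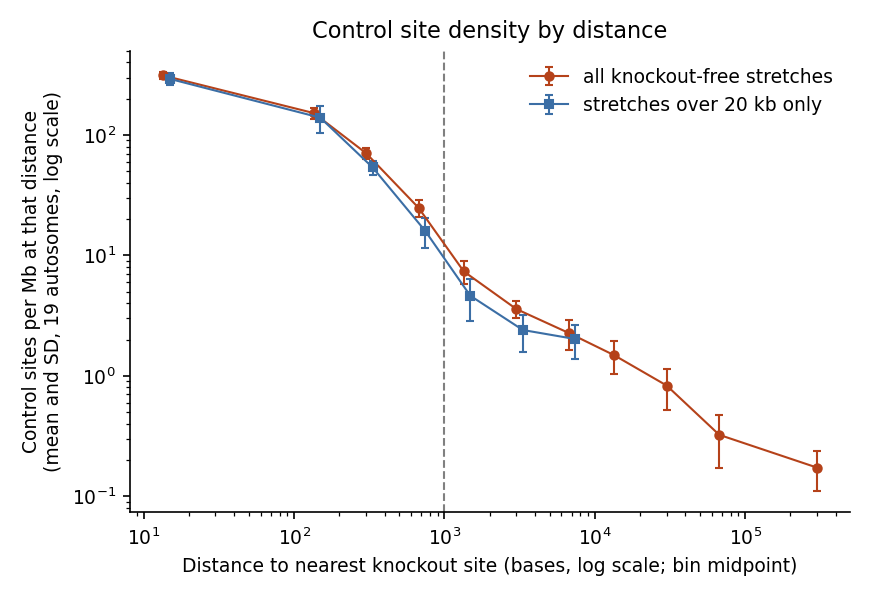
Control sites per Mb of sequence available at each distance from the nearest knockout site (both axes log scale; points are means and bars SDs over 19 autosomes; the last point covers all distances over 100 kb). Mean density falls across the dashed line at 1000 bases from 24.8 to 7.36 sites per Mb and goes on falling to 0.173. In stretches over 20 kb it falls less steeply between 2001 and 10000 bases.

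A far site needs a stretch of more than 2 kb without a knockout site, and few such stretches held one. There were 52473 stretches of 2000 bases or more between neighbouring autosomal knockout sites, and 2596 of them (4.95%, 4.76 to 5.14) held a far site. The few of exactly 2000 bases in that count can hold none. One far site, on chromosome 17, lay before the first knockout site of its chromosome. Stretches with a far site had a median length of 27265.5 bases, against 12298 bases for those without. The share with a far site was 1.54% in stretches of 2001 to 5000 bases, 6.78% in those of 20001 to 50000 bases and 14.0% in those over 500 kb. Per Mb of sequence more than 1000 bases from both ends the order was the opposite, with 12.3 far sites in the shortest of these classes, 2.73 in the middle one and 0.175 in the longest.

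Most occupied stretches held a single far site. That was the case in 2196 stretches, while 347 held 2, 47 held 3, 5 held 4 and 1 held 5. The longest stretch with a far site ran from 106505453 to 111209154 on chromosome 14, 4703700 bases, and held the farthest site and 1 further control site. Next came chromosome 1 from 26397728 to 30035183, with 2 far sites in 3637454 bases, and chromosome 1 from 148178296 to 151776450, with 1 in 3598153 bases. The stretches from 66314308 to 69376062 on chromosome 7 and from 114417529 to 117231203 on chromosome 12 held 1 each. The stretch with 5 far sites was short by comparison. It lay on chromosome 16 between the knockout sites at 94079373 and 94099005, and was chosen once its values were known. Its far sites were at 94087706 and 94087828, 122 bases apart, and at 94093648, 94093678 and 94093705, which are 30 and 27 bases apart. Those 5 control bases lay 5300 to 8455 bases from the nearest knockout site.

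Far sites were spread over all autosomes, at a density that followed the other listed sites. They averaged 1.28 ± 0.266 per Mb (SD, n = 19 autosomes), from 0.820 on chromosome 14 to 1.80 on chromosome 11. Those chromosomes were also the sparsest and the densest in all control sites. Across the 19 autosomes, far sites per Mb had a Pearson correlation of 0.911 with control sites per Mb and of 0.892 with knockout sites per Mb (Spearman 0.888 and 0.865). These are descriptions, since chromosomes share the same 2 lists and far sites are part of the control list. At 1 Mb, 1253 of 2306 windows with any listed site held a far site, and the number of far sites had a Pearson correlation of 0.632 with that of other control sites and of 0.650 with that of knockout sites. Thus Mb-scale regions with many knockout sites also held more far sites, although each far site was by rule away from any of them.

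As a share of far and near sites, far sites varied little among autosomes, with chromosome 16 the highest. The share averaged 9.95% ± 1.03 (SD, n = 19). It was 12.8% (10.8 to 15.1) on chromosome 16, with 126 far sites, 11.6% (10.2 to 13.1) on chromosome 1, with 221, and 11.0% (9.40 to 12.8) on chromosome 3, with 153. The lowest shares were 8.37% (7.08 to 9.81) on chromosome 6 and 8.43% (7.37 to 9.57) on chromosome 11. The intervals of chromosomes 16 and 6 did not overlap, while 15 autosomes lay between 9.24% and 11.0%. The extremes were picked from 19 values with no correction. Without chromosome 16 the SD over autosomes was 0.779 percentage points. With knockout sites per Mb over the 19 autosomes the share had a Pearson r of -0.463 and a Spearman rho of -0.277. The median distance to a knockout site ran from 3851 bases on chromosome 5 to 7832 bases on chromosome 16, so chromosome 16 was highest in share and in distance.

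**Figure D3:**
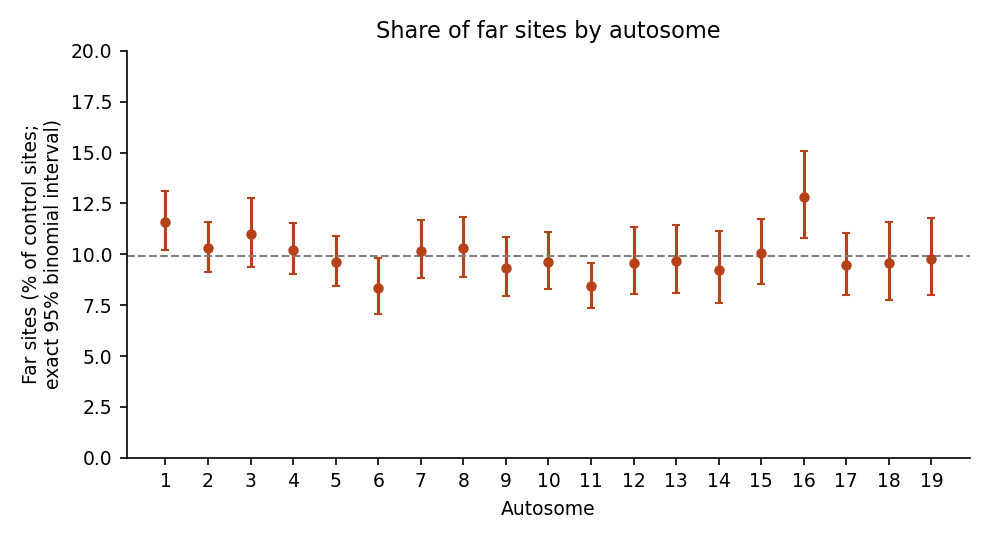
Far sites as a percentage of far and near control sites on each autosome, with exact 95% binomial intervals; the dashed line is the share over all autosomes, 9.90%. Chromosome 16 stands highest at 12.8% and chromosome 6 lowest at 8.37%, and most intervals include the dashed line.

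The surroundings of far sites were somewhat poorer in knockout sites out to 1 Mb. Knockout sites are uneven by region, so choosing sites with none within 1000 bases also tends to choose knockout-poor surroundings. The densities and autosome counts below therefore follow in part from the rule and are descriptions only. At 1001 to 10000 bases from a far site there were 190.8 knockout sites per Mb (186.5 ± 32.0 over autosomes), against 242.8 around near sites (236.6 ± 36.9). The ratio was 0.786, and far sites had the lower density on 18 of 19 autosomes. At 10001 to 100000 bases the densities were 144.8 and 171.2 per Mb, a ratio of 0.846, lower on 19 of 19 autosomes. At 100001 bases to 1 Mb they were 106.4 and 116.02 per Mb, a ratio of 0.917, lower on 16 of 19. Far sites were nonetheless in knockout-rich surroundings compared with the autosomal mean of 58.4 knockout sites per Mb. In the 1001 to 10000 base range 67.3% of far sites and 74.6% of near sites had at least 1 knockout site.

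In fixed windows of 1 Mb, far sites had a median of 104 knockout sites (quartiles 53 and 167) and near sites 121 (quartiles 70 and 187). The rule sets part of that difference, since it leaves far sites with no knockout site within 1000 bases and near sites with at least 1. With the knockout sites within 1000 bases left out for both, a count added after the values were seen, the medians were 104 (102 to 108) and 118 (117 to 119), and far sites had the lower median on 16 of 19 autosomes. By the same count, far sites were 17.0% (14.3 to 19.9) of the 743 control sites whose window had 0 to 9 such knockout sites, 13.5% (12.2 to 15.0) with 20 to 39 and 8.35% (7.82 to 8.91) with 160 or more. A knockout-poor window also offers fewer knockout sites that could lie within 1000 bases, so these shares are a description of the rule's outcome by region and support nothing further. In numbers the order was the opposite, since 126 far sites lay in the poorest windows and 840 in the richest.

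The 1 Mb windows with the most far sites were rich in both lists. The window on chromosome 17 from 29000000 to 29999999 held 12 far sites among 91 control and 375 knockout sites. On chromosome 4, the window from 137000000 to 137999999 held 11 among 70 control and 312 knockout sites. On chromosome 16, the window from 94000000 to 94999999 held 11 among 40 control and 152 knockout sites, and it includes the stretch with 5 far sites. The windows from 91000000 on chromosome 1 and from 101000000 on chromosome 3 held 10 each, among 37 and 60 control sites. They are the first 2 by position of 6 windows with 10 far sites. The richest windows therefore differed in composition, with far sites making up fewer of the control sites on chromosomes 17 and 4 than on chromosomes 16 and 1.

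Far sites had fewer other control sites close by than near sites had, a difference that the rule itself helps to set. Another control site lay within 1 kb of 686 far sites, 22.4% (21.0 to 24.0), and of 41.5% (41.0 to 42.1) of near sites, against 42.8% of all autosomal control sites. The far share was the lower on 19 of 19 autosomes, at 21.8% ± 5.02 against 41.4% ± 1.96 (SD over autosomes). Median distances to the nearest other control site were 7798 bases (7057 to 8802) for far and 2442 bases (2313 to 2573) for near sites. The lower far share was also seen within each class of 1 Mb windows by knockout number, for example 18.3% against 28.8% in windows with 0 to 9 knockout sites and 23.7% against 44.3% in windows with 160 or more. The intervals of far and near sites overlapped in the classes of 0 to 9 and 20 to 39 knockout sites and were separate in the other 4.

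The rule sets much of this difference within 1 kb, so the counts of autosomes and window classes above are descriptions only. A neighbour listed on the same or the adjacent base in knockout cells puts a knockout site within reach of the 1000-base limit, so almost no far site can have such a neighbour within 1 kb. With neighbours restricted, for both kinds of site, to control sites that had no knockout site on the same or an adjacent base, the shares within 1 kb were 22.4% (21.0 to 24.0) for far sites and 23.0% (22.5 to 23.4) for near sites. The difference within 1 kb was then inside the counting interval. This restriction was chosen after the values were seen. At shorter distances far sites had the higher restricted share, 9.62% against 7.57% within 100 bases, and at longer ones the lower, 44.4% against 47.6% within 10 kb. Up to 1 kb the restriction left the far shares unchanged and lowered only the near shares, within 100 bases from 17.1% to 7.57%. The order of the restricted shares at these distances therefore follows in part from the rule and is given as a description only.

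**Figure D4:**
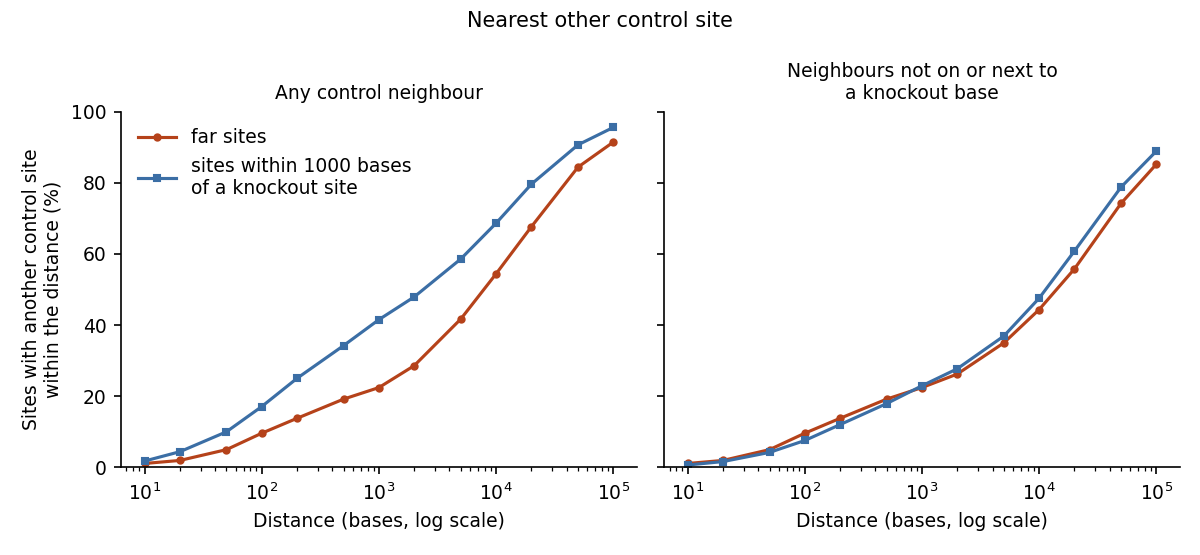
Percentage of far sites and near sites that have another control site within the distance on the horizontal axis (bases, log scale), counting any control neighbour (left) or only neighbours with no knockout site on the same or an adjacent base (right). On the left the far sites run below, 22.4% against 41.5% at 1 kb, and on the right the curves cross near 1 kb, at 22.4% against 23.0%, with far sites higher at 100 bases and lower at 10 kb. Up to 1 kb the restriction lowers only the curve of near sites.

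Beyond the 1000 bases fixed by the rule, control sites around far sites were modestly sparser. At 1001 to 10000 bases there were 45.8 control sites per Mb around far and 58.9 around near sites (45.04 ± 8.17 and 57.3 ± 8.93 over autosomes), a ratio of 0.778, lower on 19 of 19 autosomes. The ratio was 0.852 at 10001 to 100000 bases and 0.916 at 100001 bases to 1 Mb, close to the ratios of knockout sites at the same distances. Near sites that share their base with a knockout site (58.6 per Mb at 1001 to 10000 bases) and near sites 2 to 1000 bases from one (60.1 per Mb) had similar values. The value around far sites was below both. Both near kinds were chosen for a knockout site within 1000 bases and far sites for none. The ratios may therefore follow in part from the rule and are descriptions only.

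A minority of far sites still lay in small, tight groups. The density of control sites within 2 to 1000 bases of a far site was 128.9 per Mb, 5.16 times that at 100001 bases to 1 Mb. Around near sites the same ratio was 10.9. Of the 686 far sites with a control site within 1 kb, 614 had only far sites as neighbours, 59 only other control sites and 13 both. The rule largely sets this split. More than 2000 bases from a knockout site, any control neighbour within 1 kb is itself more than 1000 bases from every knockout site. Of the 3057 far sites, 2340 lay that far away. Joining far sites no more than 1 kb apart gave 2731 groups: 2430 single sites, 277 of 2 sites, 23 of 3 and 1 of 4. Groups of 2 or more held 627 far sites, 20.5% (19.1 to 22.0), and had a median span of 138 bases.

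The spacing within these groups was short. Of 326 pairs of neighbouring far sites within 1 kb, 75 (23.0%) were 2 to 50 bases apart, 70 (21.5%) 51 to 100 bases, 65 (19.9%) 101 to 200 bases, 58 (17.8%) 201 to 400 bases and 58 (17.8%) 401 to 1000 bases. Their median spacing was 122.5 bases. Among the 6311 pairs of neighbouring near sites within 1 kb the median was 155 bases, and 25.4% (24.3 to 26.5) were 401 to 1000 bases apart, against 17.8% (13.8 to 22.4) for far sites. The labels' protocol fragmented the DNA to 100 to 400 bp. No more than 400 bases separated 82.2% of far pairs and 74.6% of near pairs, so short spacing was common to both. Whether both bases of such a pair were read on the same fragments cannot be told from positions.

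The groups with the most far sites had no other control site between them. The group of 4 lay on chromosome 1, at 72926910, 72926964, 72927240 and 72927260, which is 2 close pairs in 351 bases, 4633 bases or more from any knockout site. On the same chromosome, 91788234, 91788696 and 91789051 spanned 818 bases, beginning 1186 bases from a knockout site. Positions 189627701, 189627704 and 189627829, also on chromosome 1, spanned 129 bases and were 23374 bases or more from one. On chromosome 2, 4219891, 4219991 and 4220015 spanned 125 bases at 45609 bases or more, and 31613752, 31613836 and 31613921 spanned 170 bases at 4315 bases or more. The last 4 are the first by position of 23 groups of 3. These groups thus occurred both near the threshold and more than 45 kb from the nearest knockout site. Among those named, the group nearest the threshold was the widest, at 818 bases, and the most distant the narrowest, at 125 bases. Span was not compared with distance over all groups, so no trend is read from these few.

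Far sites with a close control neighbour were found at every distance from knockout sites, also where other control sites were rare. The share with one within 1 kb had no steady order by distance. It was 24.5% (21.4 to 27.9) at 1001 to 2000 bases from a knockout site, 20.8% (18.0 to 23.8) at 2001 to 5000 bases, 18.3% (15.1 to 21.8) at 5001 to 10000 bases, 24.5% (21.5 to 27.7) at 10001 to 50000 bases and 24.3% (18.8 to 30.5) beyond 50 kb. The lowest and the highest class were 18.3% and 24.5%, the intervals of the classes on each side of 10 kb overlapped only narrowly, and no test of the difference between classes was run. Over the same classes the median distance to the nearest other control site was 2518, 4375, 8596, 23058 and 117902 bases. So beyond 50 kb, where the typical far site had no control site for more than 100 kb, 54 of 222 still had one within 1 kb.

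**Figure D5:**
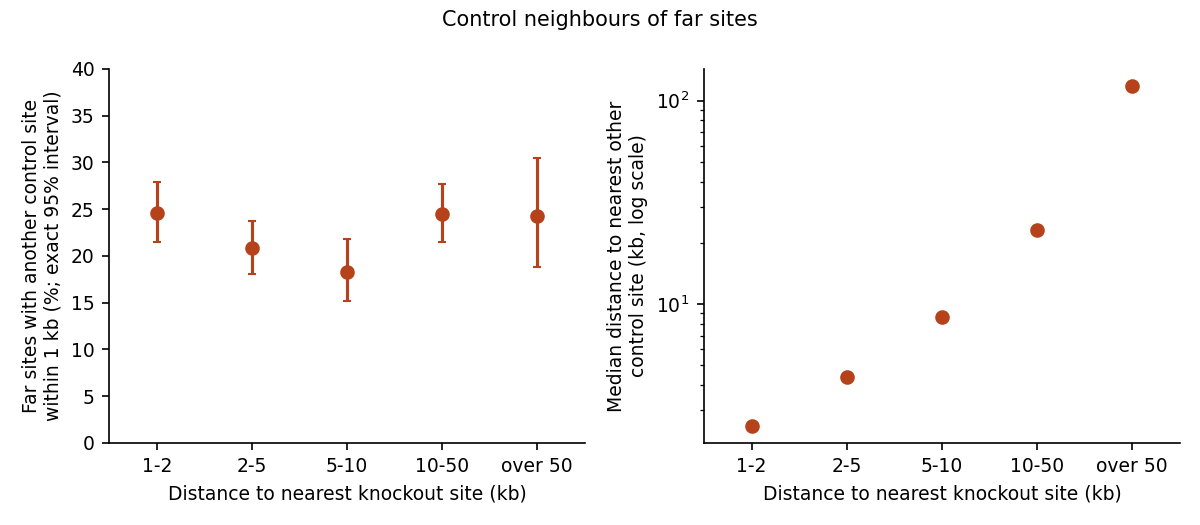
Far sites by distance to the nearest knockout site (kb). Left, the percentage with another control site within 1 kb, with exact 95% binomial intervals; right, the median distance to the nearest other control site (kb, log scale). The left values lie between 18.3% and 24.5%, lowest at 5 to 10 kb, while the right values go from 2518 to 117902 bases.

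Pairs on adjacent bases, the spacing of the 2 cytosines of a CpG on opposite strands, were rarer among sites far from knockout sites. Before the rule left them out, 56 of 3113 sites without a knockout site within 1000 bases had a control site 1 base away, 1.80% (1.36 to 2.33). Among sites with a knockout site within 1000 bases the share was 5.65% (5.39 to 5.92). It was 6.76% (6.35 to 7.19) for control sites on the same base as a knockout site, 14.2% (12.9 to 15.6) for those 1 base from one and 2.67% (2.40 to 2.96) for those 2 to 1000 bases away. The gap was thus widest against sites on or next to a knockout base, and narrower against the other near sites, 1.80% against 2.67%. These sites come in pairs, the 56 in 28 pairs, so intervals that count each site are too narrow. The small space between the last 2 intervals therefore cannot be read as a separation. The lists give no strand, level or read number, so a partner cytosine that was modified but not listed cannot be told apart from one that was not modified.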

How the data were processed

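The authors deposited 1 list of 5fC positions per genotype. Each row gives a chromosome and a start equal to its end, an other kind of value than a count or level, with no strand, depth or replicate. Per the submitters' processing notes, the build was mm9 and the tools were Bismark 0.8.3 and HOMER, with no step given for either. Calling rule, pooling of replicates and whether positions count from 0 or 1: not given in the sources used here. Read depth is unknown. The gene and sequence tables used here are on GRCm38, another build, so sites were tied to no gene and no sequence is printed.

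Distances were computed in Python 3.11.15 with numpy 2.4.6, scipy 1.17.1 and pandas 2.3.3, and figures drawn with matplotlib 3.10.9. Densities used the span from first to last listed site. The scripts were tested on simulated lists. Members, measures and alternatives were chosen with earlier results of these data known. Named regions are the 10 most distant far sites, 5 largest groups, 5 richest 1 Mb windows, 5 longest stretches and 3 sites on each side of the threshold.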

Additional observations from a re-analysis of the deposited data

Results flagged for a closer look

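The X chromosome lies outside the rule, and its sites were noted as signal outside the autosomes compared. Of 54 control sites on X without an adjacent control site, 17 were more than 1000 bases from a knockout site, 31.5% (19.5 to 45.6). X held 306 knockout sites in all, against 138649 on the 19 autosomes. As in knockout-poor windows, few knockout sites leave few that could lie within 1000 bases. The share on X is thus a description of the rule's outcome there, and the part of knockout number in it was not tested. The median distance of the 17 X sites to a knockout site was 32792 bases, and 0 of 17 had another control site within 1 kb (exact 95% interval 0 to 19.5%). On sequence not placed on a chromosome, 1 of 15 control sites met the same distance rule.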

How the results depend on the processing

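Of 27 alternatives over 5 results, 9 stayed within the 95% interval of the reported value (for the SD, within its standard error) and 18 moved outside it, with no test involved. Most moved because they count something else by construction. The share of far sites, 9.90%, was 14.5%, 7.58%, 4.99% and 3.24% with the distance set at 500, 2000, 5000 and 10000 bases. It was 9.54% with adjacent sites kept, 10.9% for regions of sites joined within 1 kb, and 9.37% of all autosomal control sites, an alternative added after seeing the data. The share with a control neighbour inside 1 kb, 22.4%, came to 9.62% at 100 bases and to 54.4% at 10 kb. It was 27.5% for sites beyond 500 bases and 24.5% for sites beyond 10 kb. The median of 104 knockout sites in the same 1 Mb window was 113, 97, 76 and 60 for sites beyond 500, 2000, 5000 and 10000 bases, and 120 per Mb and 80.8 per Mb in windows of 100 kb and 5 Mb. Leaving out knockout sites within 1000 bases cannot change this median, since far sites have none. The SD over autosomes, 1.03 points, was 0.779 without chromosome 16. The median distance to a knockout site kept within its interval with adjacent sites or X included. No paired analysis was possible because neither list has values per replicate. The number of far sites depends on the length and calling of both lists, whose depth is unknown.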
